A study of Homo sapiens with 16 samples.

Results

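Of the 60676 genes in the deposited count table, 8 were examined: CSF1, CSF1R, CSF2RA, CSF2RB, CSF3R, IL3RA, FLT3 and KIT, a myeloid growth factor and the receptors through which such factors act. They were chosen by name, with earlier results of these data known. They are the rows of the table whose Ensembl identifier belongs to these symbols, and all 8 had a row. The RNA was from THP-1, a human monocytic leukemia line that stops dividing and becomes macrophage-like when treated with phorbol-12-myristate-13-acetate (PMA), an activator of protein kinase C. Stable lines carried a lentiviral pLKO.1 hairpin, kept by puromycin selection, against UHRF1, DNMT1 or DNMT3B, which write or maintain DNA methylation, or a control hairpin (shNC). Each line was treated with PMA at 100 ng/ml or with its solvent DMSO for 48 hours, and 2 stranded mRNA libraries were sequenced for each of the 8 groups. All groups, controls included, are therefore puromycin-selected hairpin lines of the same leukemia, with 1 line for each target.

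Colony-stimulating factors are secreted proteins that keep blood progenitors alive and steer them along the myeloid lineages. Their receptors are of 2 kinds. CSF1R, FLT3 and KIT are receptor tyrosine kinases that pair up when their ligand binds, whereas the receptors for GM-CSF, IL-3 and G-CSF have no kinase of their own and signal through JAK kinases and STAT transcription factors. FLT3 and KIT are typical of stem and progenitor cells and are often active in myeloid leukemia, and CSF1R marks monocytes and macrophages.

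The 250 bases upstream of the annotated start of 3 of these genes are shown because FLT3 and KIT are receptors of progenitors whose RNA was lower with PMA in the control line, CSF1R is the receptor tyrosine kinase whose RNA was higher, and the hairpins were made against genes of DNA methylation, which in mammals falls mainly on CG. The sequences are from RefSeq (GRCh38.p14), read 5′ to 3′ on the strand of the gene, with CG in capitals: FLT3 at chr13:28100577-28100826 on the minus strand, KIT at chr4:54657707-54657956 on the plus strand, and CSF1R at chr5:150086555-150086804 on the minus strand.
FLT3: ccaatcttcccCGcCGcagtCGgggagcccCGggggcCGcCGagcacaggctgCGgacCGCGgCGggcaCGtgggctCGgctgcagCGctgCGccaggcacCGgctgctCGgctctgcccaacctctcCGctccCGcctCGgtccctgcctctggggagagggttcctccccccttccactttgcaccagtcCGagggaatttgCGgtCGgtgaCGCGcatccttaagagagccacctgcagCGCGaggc
KIT: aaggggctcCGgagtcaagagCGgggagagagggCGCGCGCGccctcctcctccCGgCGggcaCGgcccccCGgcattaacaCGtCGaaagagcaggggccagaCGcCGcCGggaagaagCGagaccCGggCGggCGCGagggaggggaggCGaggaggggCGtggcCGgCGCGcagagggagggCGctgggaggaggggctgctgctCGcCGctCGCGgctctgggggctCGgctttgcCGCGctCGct
CSF1R: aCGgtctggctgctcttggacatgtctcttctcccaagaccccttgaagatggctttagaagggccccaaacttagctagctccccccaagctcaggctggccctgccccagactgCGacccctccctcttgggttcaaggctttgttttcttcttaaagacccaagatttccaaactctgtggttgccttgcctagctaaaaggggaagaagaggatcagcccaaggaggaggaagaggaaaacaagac
The FLT3 window held 26 CG and the KIT window 34, more than 80.4% and 93.2% of the 35116 promoters of the same length, whose median was 11. The CSF1R window shown held 2, and 14.7% of promoters held fewer. A second annotated CSF1R start, at chr5:150113366-150113615, held 6. CSF2RA and IL3RA held 4 each, and the starts of CSF3R held 8 and 3. CSF1 and CSF2RB were not matched, which left 6 of the 8 genes. Motifs were searched on both strands. TGTGGT, bound by RUNX proteins and present in 11% of promoters, was found once in the CSF1R window shown, and GAGGAA, a core bound by PU.1 and present in 23.6%, was found in the CSF1R window, in FLT3, in CSF2RA and at one CSF3R start. TGANTCA, the AP-1 motif, present in 6.57% of promoters, was found once at the second CSF1R start. A match describes the letters of the window and is not evidence of binding.

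The libraries held 13883556 to 23151864 counts, those of replicate 1 (20384066 to 23151864) all above those of replicate 2 (13883556 to 15679327). Mitochondrially encoded genes took 7.71 to 29.0% of the counts in replicate 1 and 3.92 to 14.5% in replicate 2. All 11 myeloid markers checked had counts, and their sum was 1389 to 2558 CPM (counts divided by the scaled library size) over the 8 groups. The sum covers opposite moves. ELANE was 720 to 1700 CPM with DMSO and 41.4 to 206 with PMA, whereas CD68 was 146 to 257 and then 950 to 1335. MPO was at most 0.478 CPM with PMA. Markers of red cells summed to 489 CPM in replicate 1 of shNC DMSO, 0 in replicate 2 of that group and at most 2.23 elsewhere, so the DMSO results below are also given without that library where it decided them. None of UHRF1, DNMT1 and DNMT3B had a called decrease in the line with its own hairpin: in DMSO the CPM was 81.6 against 105 for UHRF1 (adjusted p = 0.605), 96.9 against 115 for DNMT1 (0.787) and 6.63 against 9.23 for DNMT3B (0.212) by edgeR's quasi-likelihood test. With PMA UHRF1 was 10.9 against 6.03 CPM (adjusted p = 0.129, with the replicate number as a block 0.000375) and DNMT1 91.9 against 67.5 CPM (0.376, with the block 0.00418), and DNMT3B was higher in its own line (2.97 against 1.42 CPM, adjusted p = 0.00688). The groups are therefore called libraries labelled shUHRF1, shDNMT1 and shDNMT3B, and every direction drawn between lines below is between labelled libraries, not between degrees of depletion measured in this RNA. The study that made the data checked the knockdown of these proteins by western blot, and protein is not measured here. In 12 of the 16 records the title and the description name different conditions, and the groups follow the column names. The part of that conflict in these target values was not tested.

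Levels are given as CPM after TMM scaling, in the order replicate 1 and replicate 2, and a gene was called where the Benjamini-Hochberg adjusted p over the 16503 genes tested by edgeR's quasi-likelihood test was under 0.05. No label says that the replicates were separate cultures, so p-values measure only the spread between these libraries. In RNA from whole cultures, fewer cells that express a gene and less RNA per cell cannot be told apart. Replicates with the same number deviated together, so the value with the replicate number as a block is given wherever it changed a call. A fit without 1 library leaves 1 library in its group, and calls over all genes fell in nearly all of these fits. A call lost in this way does not by itself set a gene apart.

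PMA changed 7 of the 8 genes in the control line, a share to be read against a background in which 54.4% of all genes were called. CSF1, CSF1R, CSF2RB and IL3RA rose and CSF3R, FLT3 and KIT fell, the log2 fold changes running from 8.31 for CSF1 to -6.11 for KIT. CSF2RA did not pass the test. In the libraries labelled shUHRF1, 4 genes rose and 3 fell (background 54.9%), in shDNMT1 5 rose and 2 fell (52.7%), and in shDNMT3B 3 rose and 2 fell (44.9%). The median log2 fold change of the 8 genes was 0.87 in shNC, 1.11 in shUHRF1, 0.94 in shDNMT1 and 0.36 in shDNMT3B, while the median of all genes was at most 0.02 in each line. With the block the calls were 4 up and 3 down in shNC (background 67.1%), 5 and 3 in shUHRF1 (67.9%), 5 and 3 in shDNMT1 (65.4%) and 4 and 3 in shDNMT3B (59.9%). Under upper-quartile scaling the all-gene median was -0.285, -0.312, -0.254 and -0.219 in shNC, shUHRF1, shDNMT1 and shDNMT3B, and the genes called up and down went from 4688 and 4295 to 3696 and 5609 in shNC, from 4847 and 4207 to 3787 and 5722 in shUHRF1, from 4721 and 3973 to 3787 and 5315 in shDNMT1, and from 4157 and 3253 to 3298 and 4542 in shDNMT3B. The 8 genes remained at 4 up and 3 down in shNC under it.

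**Figure D1:**
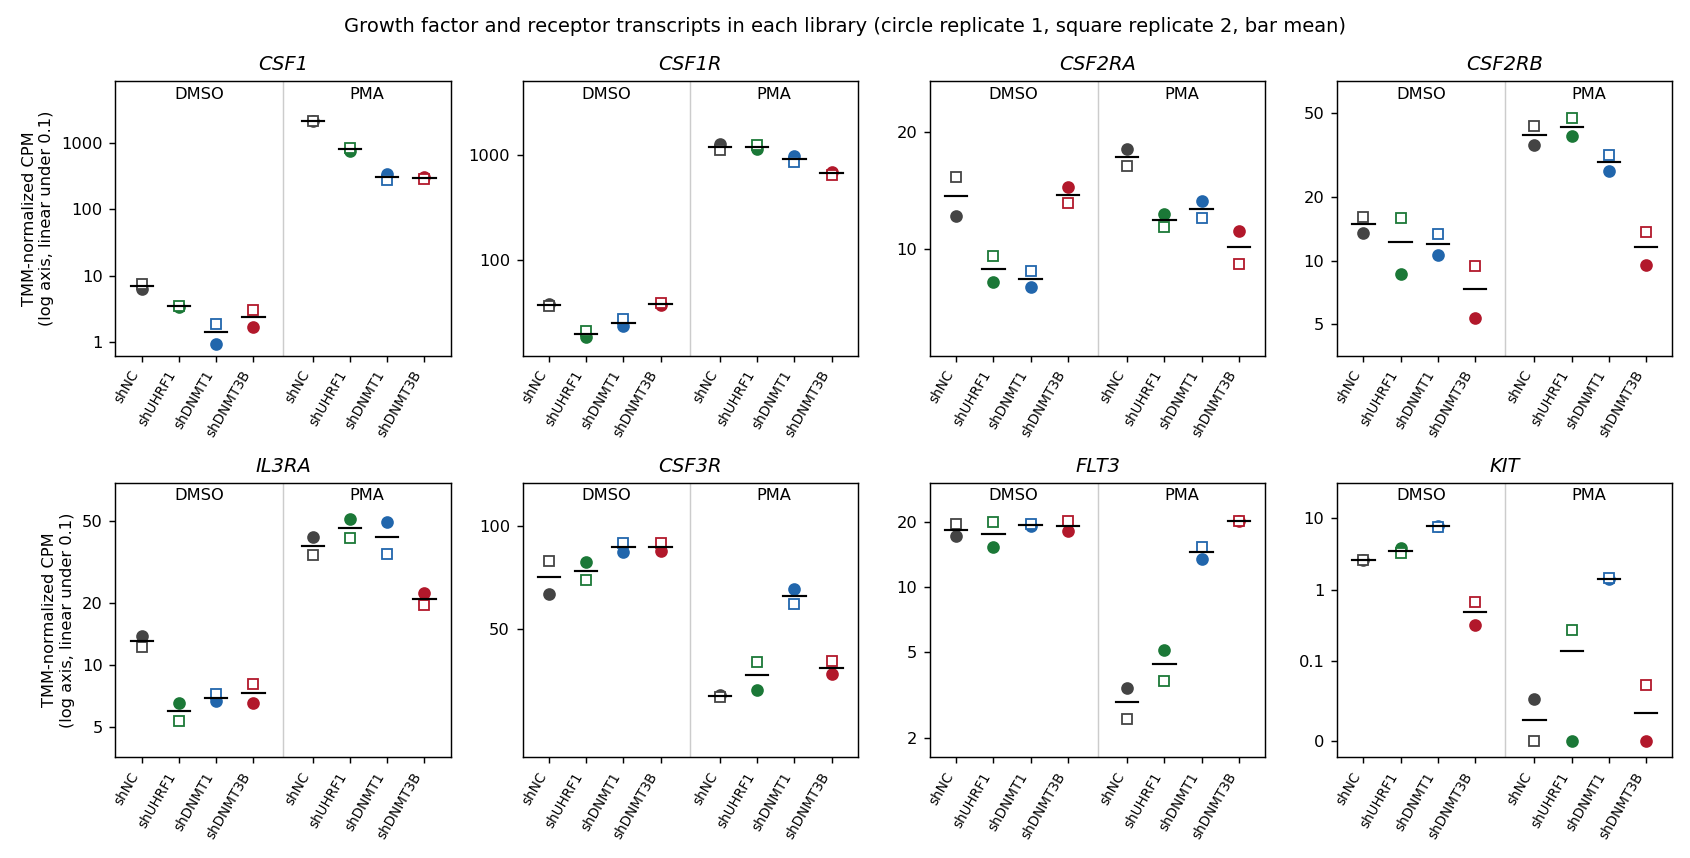
TMM-scaled CPM of the 8 genes in each of the 16 libraries, on log axes, by line and treatment. Each group has a circle (replicate 1), a square (replicate 2) and a bar at their mean. CSF1 in PMA stands at 2154 to 2186 in shNC and at 278 to 347 in the libraries labelled shDNMT1, and FLT3 in PMA stands at 2.45 to 3.42 in shNC and at 20.2 to 20.3 in those labelled shDNMT3B.

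CSF1, or M-CSF, is the ligand that supports monocytes and macrophages through CSF1R. Its gene (ENSG00000184371) lies on chr1:109910242-109930992, plus strand, in hg38. The CPM in shNC was 6.21 and 7.49 with DMSO and 2186 and 2154 with PMA, a 317-fold ratio of means (log2 8.31 ± 0.36 SE, adjusted p = 2.1e-09). In the libraries labelled shUHRF1 it was 3.34 and 3.47 with DMSO and 777 and 848 with PMA. In those labelled shDNMT1 it was 0.923 and 1.87, then 347 and 278. In those labelled shDNMT3B it was 1.64 and 3.0, then 305 and 286. Every PMA library was above every DMSO library, and CSF1 rose in all 4 lines, by 239-fold in shUHRF1, 224-fold in shDNMT1 and 127-fold in shDNMT3B. The shNC libraries were the highest within each treatment and overlapped with no other line.

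Against shNC in PMA, CSF1 was lower in the other 3 lines, at log2 -1.42 in shUHRF1 (adjusted p = 0.0124), -2.80 in shDNMT1 (3.3e-05) and -2.88 in shDNMT3B (3.4e-05). The shUHRF1 call was lost without any one of its 4 libraries, in fits where 1 group held 1 library, at log2 values of -1.48 to -1.36. With the block its adjusted p was 1.8e-06 by edgeR. The other calls were kept without each library in turn. In DMSO, CSF1 was lower in shDNMT1 (log2 -2.28 ± 0.32 SE, adjusted p = 0.00119) and in shDNMT3B (-1.56 ± 0.30, 0.011). The latter was lost without shNC DMSO replicate 2 (-1.42, 0.0749) or without shDNMT3B DMSO replicate 1 (-1.19, 0.118). The shUHRF1 value of -1.01 had an adjusted p of 0.144, and 0.00609 with the block. All these comparisons share the same shNC libraries.

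CSF1R, the receptor tyrosine kinase for CSF1 and IL-34, lies on chr5:150053291-150113372, minus strand (ENSG00000182578). With DMSO its CPM was 38.4 and 36.7 in shNC, 18.4 and 21.1 in shUHRF1, 23.5 and 27.2 in shDNMT1 and 37.6 and 38.7 in shDNMT3B. With PMA it was 1267 and 1115, 1136 and 1260, 983 and 866, and 684 and 651, the lines being taken as before. Each line rose with PMA without overlap, from 17.5-fold in shDNMT3B (log2 4.13, adjusted p = 4.7e-09) to 60.6-fold in shUHRF1 (5.92, 4.8e-10). The libraries labelled shDNMT3B were the lowest of all PMA libraries, with shUHRF1 and shNC overlapping at the top. In PMA the shDNMT3B libraries were lower than shNC (log2 -0.84, adjusted p = 0.00438 by edgeR), a call lost without shDNMT3B PMA replicate 2 (-0.80, 0.05). In DMSO, where shDNMT3B and shNC overlapped, the shUHRF1 libraries were lower than shNC (log2 -0.93 ± 0.17 SE, adjusted p = 0.0185). That call was lost without shNC DMSO replicate 1, which carried the red cell RNA (-0.90), without shNC DMSO replicate 2 (-0.96) and without shUHRF1 DMSO replicate 1 (-0.83). With the block its adjusted p was 0.000114 by edgeR. For shDNMT1 the block turned the adjusted p from 0.0986 to 0.00795 in DMSO (log2 -0.57) and from 0.176 to 0.0343 in PMA (-0.37).

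The receptors for GM-CSF and IL-3 each join a ligand-binding alpha chain, CSF2RA or IL3RA, to the shared signaling chain CSF2RB, which IL-5 also uses. CSF2RA (ENSG00000198223, X:1268800-1310381) and IL3RA (ENSG00000185291, X:1336616-1382689) lie in the region that X and Y share, and the table holds their X entries alone, both on the plus strand. CSF2RB (ENSG00000100368) is on chr22:36913628-36940439, plus strand.

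IL3RA had the largest fitted PMA response of these chains in each line, with no test between genes. In shNC it was 13.8 and 12.3 CPM with DMSO and 41.7 and 34.2 with PMA (log2 1.54 ± 0.21 SE, adjusted p = 4.5e-05). The other lines began lower, at 5.37 to 8.09 CPM over their 6 DMSO libraries, with no overlap with shNC. With PMA the libraries labelled shUHRF1 reached 51.2 and 41.6 and those labelled shDNMT1 49.3 and 34.6, both overlapping shNC, while shDNMT3B reached 22.4 and 19.7, below all others. The rise was 7.76-fold in shUHRF1, 6.04-fold in shDNMT1 and 2.87-fold in shDNMT3B, and all 3 were called. In DMSO IL3RA was lower than in shNC, at log2 -1.13 in shUHRF1, -0.91 in shDNMT1 and -0.83 in shDNMT3B (adjusted p = 0.0216, 0.0327 and 0.0462 by edgeR). Each of these calls was lost without any one of its 4 libraries, shNC DMSO replicate 1 among them, at adjusted p = 0.0662 to 0.176, 0.0846 to 0.24 and 0.0936 to 0.293. In PMA the shDNMT3B libraries were lower (-0.85, 0.0121), a call lost without shNC PMA replicate 1 (-0.70, 0.103) or either shDNMT3B PMA library (0.0506 and 0.0966).

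CSF2RB was 13.6 and 16.2 CPM with DMSO and 35.4 and 43.4 with PMA in shNC (log2 1.40 ± 0.31 SE, adjusted p = 0.0021). It rose also in shUHRF1, from 8.62 and 16 to 39.1 and 47.3 (log2 1.81, adjusted p = 0.000351), and in shDNMT1, with PMA values of 26.7 and 31.8 (1.28, 0.00421). In shDNMT3B the values were 5.34 and 9.42 with DMSO and 9.54 and 13.7 with PMA, apart by a narrow gap (log2 0.65, adjusted p = 0.122 and with the block 0.00279). Leaving out 1 library moved that value from 0.27 to 1.12, and it was called without shDNMT3B DMSO replicate 2 (1.12, 0.0351). That line had the lowest CSF2RB of the 4 with PMA, and there it was lower than in shNC (log2 -1.76, adjusted p = 0.00222), a call kept without each library in turn (-2.04 to -1.52). In DMSO its value of -1.01 had an adjusted p of 0.105 and, with the block, 0.000165. The block also called shDNMT1 against shNC in PMA (-0.43, from 0.409 to 0.0371).

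CSF2RA varied least. Its CPM ran from 7.98 to 15.3 in the 8 DMSO libraries and from 9.15 to 18.1 in the 8 PMA libraries. The PMA response in shNC was a log2 difference of 0.33 with a 95% interval of -0.06 to 0.72 (adjusted p = 0.137). It rose in shDNMT1 (log2 0.60, adjusted p = 0.0147), a call lost without shDNMT1 DMSO replicate 1 (0.53, 0.0973) or shDNMT1 PMA replicate 1 (0.47, 0.109), and under upper-quartile scaling (0.33, 0.132). In shUHRF1 the value was 0.41 (0.0708, with the block 0.0364) and in shDNMT3B it was -0.44 (0.0636, with the block 0.0285). The shDNMT3B response was also called by edgeR under upper-quartile scaling (-0.68, 0.00732) and without mitochondrially encoded genes (-0.48, 0.0452). DESeq2 called it as well (-0.49, 0.0389). In PMA the highest libraries were those of shNC (18.1 and 16.4) and the lowest those labelled shDNMT3B (11.1 and 9.15), which were called lower (-0.76, 0.0111). That call was lost without shNC PMA replicate 1 (-0.69, 0.0827) or shDNMT3B PMA replicate 2 (-0.63, 0.112). The shDNMT1 call in DMSO (-0.71, 0.0488) was lost without any one of its 4 libraries (0.0607 to 0.311). The block also called shUHRF1 in DMSO (-0.62, from 0.144 to 0.0174), shUHRF1 in PMA (-0.54, from 0.137 to 0.0298) and shDNMT1 in PMA (-0.44, from 0.126 to 0.0442).

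CSF3R, the G-CSF receptor of the neutrophil lineage, lies on chr1:36466043-36483278, minus strand (ENSG00000119535). Its CPM in shNC was 63.3 and 79.2 with DMSO and 32.1 and 31.7 with PMA, a fall (log2 -1.16 ± 0.15 SE, adjusted p = 3.7e-05). The shUHRF1 libraries fell likewise, from 78.5 and 69.4 to 33.2 and 40.1, and those labelled shDNMT3B from 84.5 and 89.2 to 37.0 and 40.3. In shDNMT1 the values were 84.2 and 89.3 with DMSO and 65.4 and 59.3 with PMA, the highest of the PMA libraries (log2 -0.48, adjusted p = 0.0184). That response was lost without shDNMT1 DMSO replicate 2 (-0.42, 0.0944) or shDNMT1 PMA replicate 2 (-0.40, 0.117), and in the exact test after DEGES normalization (-0.40, 0.144). In PMA the shDNMT1 libraries were 1.96-fold above shNC (log2 0.97 ± 0.15 SE, adjusted p = 0.00105), with no overlap, and the call was kept without each library in turn (0.89 to 1.04).

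FLT3, the receptor tyrosine kinase for FLT3 ligand, lies on chr13:28003274-28100592, minus strand (ENSG00000122025), behind the CG-rich window shown. With DMSO the 8 libraries were close together, from 15.3 to 20.2 CPM, and each labelled line overlapped shNC. With PMA the lines parted. The CPM was 3.42 and 2.45 in shNC, 5.15 and 3.68 in shUHRF1, 13.6 and 15.4 in shDNMT1 and 20.2 and 20.3 in shDNMT3B, with no overlap between any pair of lines. FLT3 fell 6.27-fold in shNC (log2 -2.63 ± 0.23 SE, adjusted p = 7.0e-07) and 4.0-fold in shUHRF1 (-1.99 ± 0.22, 6.0e-06). In shDNMT1 the log2 difference was -0.42 with an interval of -0.86 to 0.01 (adjusted p = 0.0951, with the block 0.0285). Under upper-quartile scaling it was -0.69 there and was called (adjusted p = 0.0105 by edgeR). In shDNMT3B, where the libraries of both treatments overlapped, it was 0.07 with an interval of -0.36 to 0.51 (adjusted p = 0.80), and -0.17 under upper-quartile scaling.

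FLT3 in PMA was therefore higher than in shNC by 2.29 on the log2 scale in shDNMT1 (SE 0.23, adjusted p = 3.0e-05) and by 2.77 in shDNMT3B (SE 0.23, 9.5e-06), which is 4.93-fold and 6.89-fold. Both calls were kept without each library in turn, at 2.08 to 2.55 and 2.56 to 3.04.

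KIT, the receptor tyrosine kinase for stem cell factor, lies on chr4:54657267-54740783, plus strand (ENSG00000157404). It was the sparsest of the 8, with 603 counts over the 16 libraries. With DMSO its CPM was 2.58 and 2.55 in shNC, 3.73 and 3.23 in shUHRF1, 7.66 and 7.54 in shDNMT1 and 0.317 and 0.662 in shDNMT3B, the 4 lines not overlapping. With PMA it was 0.0526 and 0 in shNC, 0 and 0.278 in shUHRF1, 1.39 and 1.44 in shDNMT1 and 0 and 0.0709 in shDNMT3B. Only the shDNMT1 libraries stood clear of the others, whose PMA values overlapped and rested on 1 to 4 counts over both libraries. KIT fell with PMA in every line: log2 -6.11 in shNC (adjusted p = 5.9e-05), -4.70 in shUHRF1 (7.6e-05), -2.42 in shDNMT1 (0.00105) and -3.68 in shDNMT3B (0.0127). The last was lost without shDNMT3B DMSO replicate 2 (-3.06, 0.0757) or shDNMT3B PMA replicate 1 (-2.67, 0.109).

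As ratios of counts, which do not depend on the prior count of the fit, KIT with DMSO was 84.3 times its PMA level in shNC (97 against 1 counts, exact 95% interval 14.8 to 3365). The ratio was 27.9 in shUHRF1 (145 against 4 counts, 10.7 to 104), 15.6 in shDNMT3B (19 against 1, 2.48 to 647) and 5.40 in shDNMT1 (286 against 50, 3.99 to 7.45). The interval of shDNMT1 did not meet those of shNC or shUHRF1, and it overlapped with that of shDNMT3B. These intervals cover counting error alone. In PMA the shDNMT1 libraries were 46.3 times shNC (50 against 1 counts, 7.93 to 1863), with a fitted log2 difference of 5.25 (adjusted p = 0.00201) that ran from 4.57 to 7.67 without each library in turn. In DMSO the shDNMT3B libraries were lower than shNC (log2 -2.37, adjusted p = 0.027), a call lost without any one of its 4 libraries (0.0604 to 0.209). The shDNMT1 libraries were higher by 1.56, at 0.0874 and with the block 0.0023. Mast cell and basophil markers summed to 0.156 to 3.21 CPM with DMSO and 35.0 to 711 with PMA, through TPSB2 and, at 0.496 to 8.83 CPM, TPSAB1, while CPA3 was at 0 counts and HDC at 4. Their part in the KIT values was not tested.

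**Figure D2:**
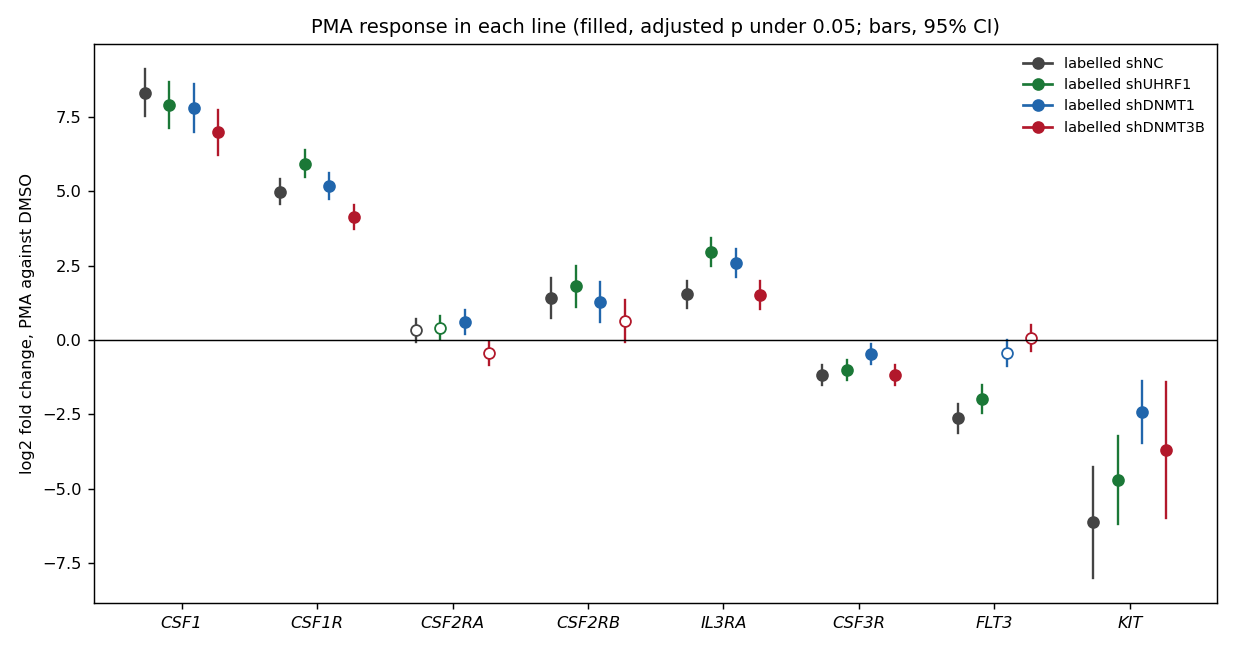
Log2 fold change of PMA over DMSO for the 8 genes in each line, with 95% confidence intervals. Filled points passed the test (adjusted p under 0.05). CSF1 and CSF1R lie far above 0 in all 4 lines, and FLT3 lies at -2.63 in shNC and at 0.07 in the libraries labelled shDNMT3B.

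Between lines, the 3 DMSO comparisons with shNC called 2, 3 and 3 of the 8 genes in shUHRF1, shDNMT1 and shDNMT3B, against 1.31%, 3.96% and 4.51% of all genes. All of them were lower than in shNC, and all were lost in a fit of only the groups compared (adjusted p = 0.0873 to 0.311). Calls over all genes in DMSO were mostly lower too, 189 of 217 in shUHRF1, 559 of 653 in shDNMT1 and 477 of 744 in shDNMT3B. The median log2 difference of the 8 genes was -0.45, -0.44 and -0.41, beside -0.04, -0.04 and -0.02 for all genes. The 3 PMA comparisons called 1, 4 and 6 of 8, against 3.69%, 14.8% and 20.3% of all genes. Higher ones were CSF3R, FLT3 and KIT in shDNMT1 and FLT3 in shDNMT3B, and lower ones were CSF1 in every line and CSF1R, CSF2RA, CSF2RB and IL3RA in shDNMT3B. The median log2 difference of the 8 genes in PMA was 0.17 in shUHRF1, -0.11 in shDNMT1 and -0.80 in shDNMT3B, beside 0.02, 0.01 and 0.04 for all genes. With the block the calls were 4, 5 and 4 of 8 in DMSO (backgrounds 11.5%, 13.6% and 18.7%) and 2, 7 and 6 of 8 in PMA (15.2%, 31.4% and 39.9%). Under upper-quartile scaling the genes called up and down in shDNMT3B over all genes moved from 267 and 477 to 362 and 388 in DMSO, and from 1864 and 1493 to 2347 and 1027 in PMA, with a median of 0.168 in PMA. The shDNMT3B PMA libraries also stood apart in composition: mitochondrially encoded genes took 19.5 and 9.35% of their counts, against 7.71 to 10.3% and 3.92 to 4.86% in replicates 1 and 2 of the other PMA groups. There 5 markers of the PMA response summed to 7661 to 7742 CPM. The sum was 14990 to 17464 in shNC, 10746 to 14342 in shDNMT1 and 23709 to 28531 in shUHRF1. MMP9 was most of it, at 4787 to 25705 CPM over the PMA libraries. LPL was at 998 to 1844, CD36 at 40.0 to 463, RGS1 at 528 to 830 and ITGAX at 576 to 737. Without mitochondrially encoded genes 6 of the 8 genes were called in shDNMT3B with PMA, and the part of the PMA markers was not tested.

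**Figure D3:**
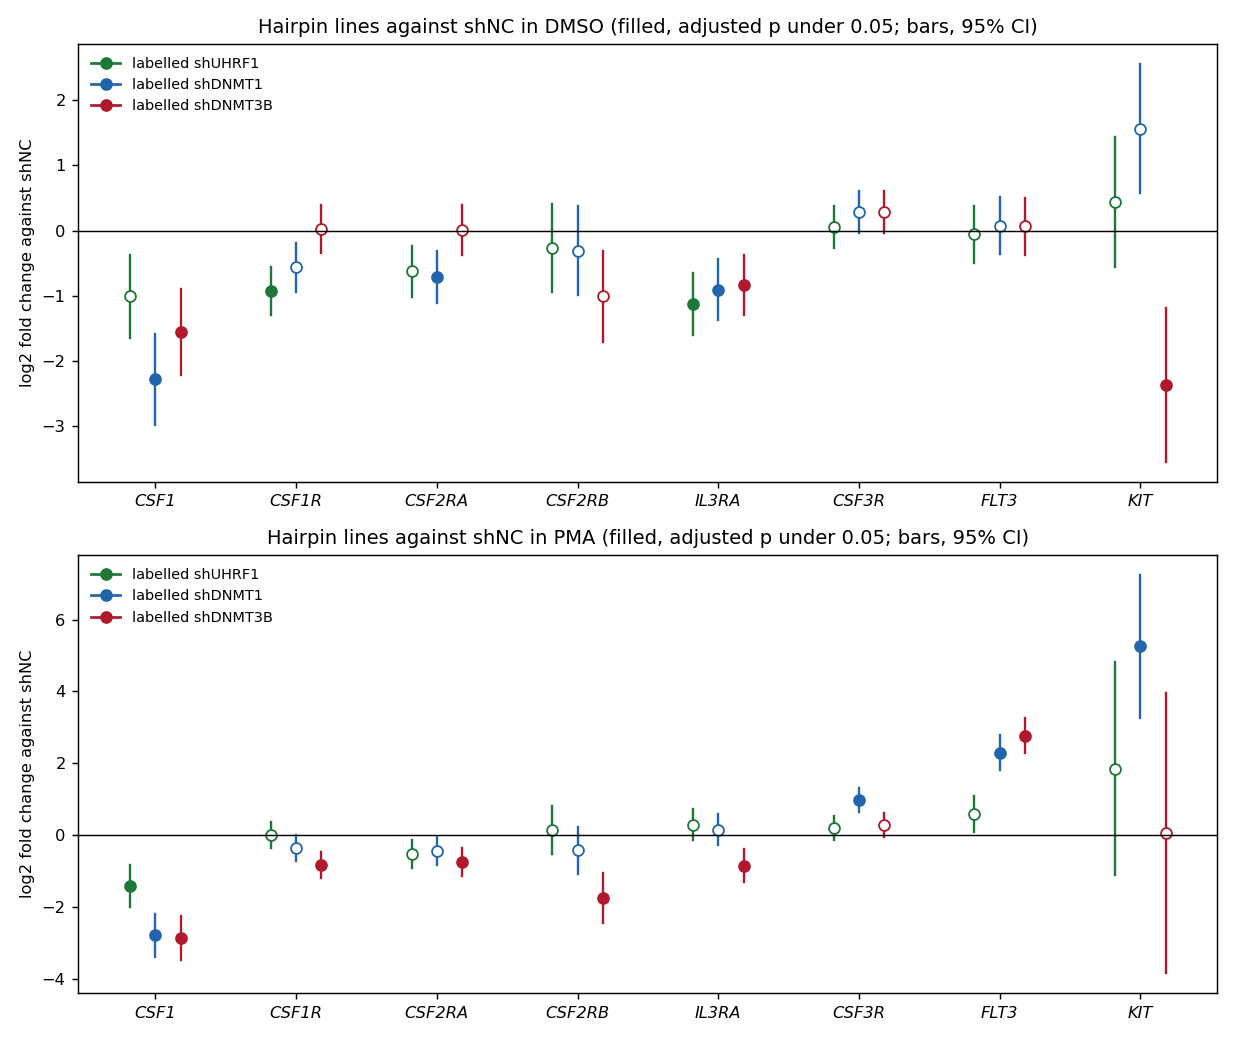
Log2 difference of each labelled line from shNC for the 8 genes, in DMSO and in PMA, with 95% confidence intervals; filled points passed the test. FLT3 lies at 2.29 and 2.77 in the PMA panel for shDNMT1 and shDNMT3B, and CSF1 lies below 0 for all 3 lines in both panels.

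The difference of the PMA responses, tested as an interaction term, was called for IL3RA in shUHRF1 (log2 1.42 ± 0.30 SE, adjusted p = 0.048), for FLT3 in shDNMT1 (2.21 ± 0.30, 0.000698) and for FLT3 in shDNMT3B (2.70 ± 0.30, 0.000168). This is 1 of the 8 genes in each line, beside 0.848%, 6.71% and 6.77% of all genes, and the median difference of the 8 genes was 0.52, 0.48 and -0.39, beside 0.06, 0.06 and 0.07. Both FLT3 differences were kept without each library in turn, at 2.00 to 2.48 and 2.50 to 2.98. The IL3RA difference was lost without any one of its 8 libraries (1.26 to 1.57, adjusted p = 0.0821 to 0.24). The larger IL3RA rise in shUHRF1 went with a lower start in DMSO and overlapping PMA levels, whereas FLT3 started at overlapping levels and differed in PMA.

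With the block, 2, 4 and 5 of the 8 genes differed in response (backgrounds 8.48%, 18.6% and 19.5%). The block added CSF1R in shUHRF1 (0.94, adjusted p from 0.112 to 0.0031 by edgeR). In shDNMT1 it added CSF3R (0.68, from 0.085 to 0.00936), IL3RA (1.05, from 0.0522 to 0.00195) and KIT (3.69, from 0.0755 to 0.0135). In shDNMT3B it added CSF1 (-1.32, from 0.0723 to 0.00334), CSF1R (-0.86, from 0.0507 to 0.00207), CSF2RA (-0.77, from 0.0979 to 0.0225) and CSF2RB (-0.76, from 0.403 to 0.0307). The CSF1 difference was also called without shDNMT3B DMSO replicate 1 (-1.68, 0.0309), and the IL3RA difference in shDNMT1 without shDNMT1 PMA replicate 2 (1.29, 0.0251).

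**Figure D4:**
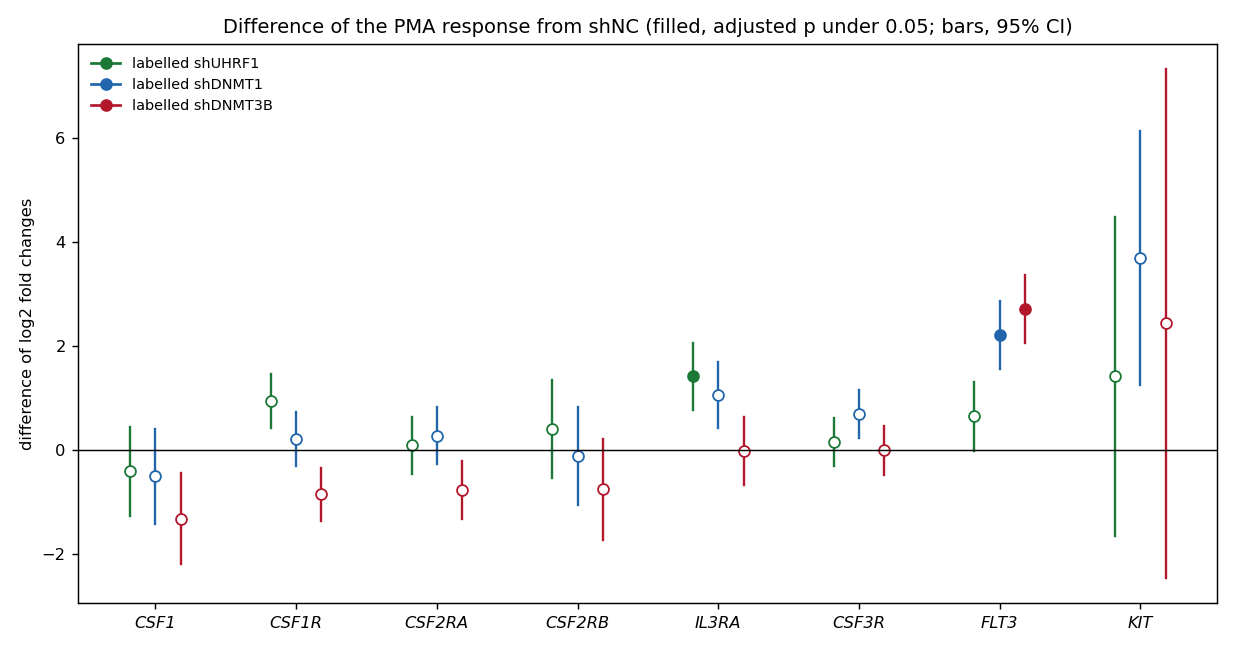
Difference of the PMA response of each labelled line from that of shNC (log2 scale) for the 8 genes, with 95% confidence intervals; filled points passed the test. FLT3 stands at 2.21 in shDNMT1 and 2.70 in shDNMT3B, and IL3RA at 1.42 in shUHRF1.

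Per kilobase of the canonical transcript, CSF3R had the highest level of the 8 genes with DMSO in every line, at 23.7 CPM per kb in shNC, followed there by CSF1R (9.83), IL3RA (8.47) and CSF2RA (7.56). With PMA the ligand CSF1 led in shNC at 543 CPM per kb, ahead of CSF1R at 312. In the other lines that order was turned: CSF1R stood at 314 and CSF1 at 203 in shUHRF1, at 242 and 78.2 in shDNMT1, and at 175 and 73.9 in shDNMT3B. FLT3 in PMA was 0.767 CPM per kb in shNC, below CSF2RB at 8.12, and 5.29 in shDNMT3B, above CSF2RB at 2.39. The first place of CSF3R with DMSO in shNC rests on its canonical length of 3008 bases. Its merged exons span 10594 bases, against 5151 for CSF1R and 1710 for IL3RA, and by that length it was not first there. These orders are descriptions, with no test between genes.

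**Figure D5:**
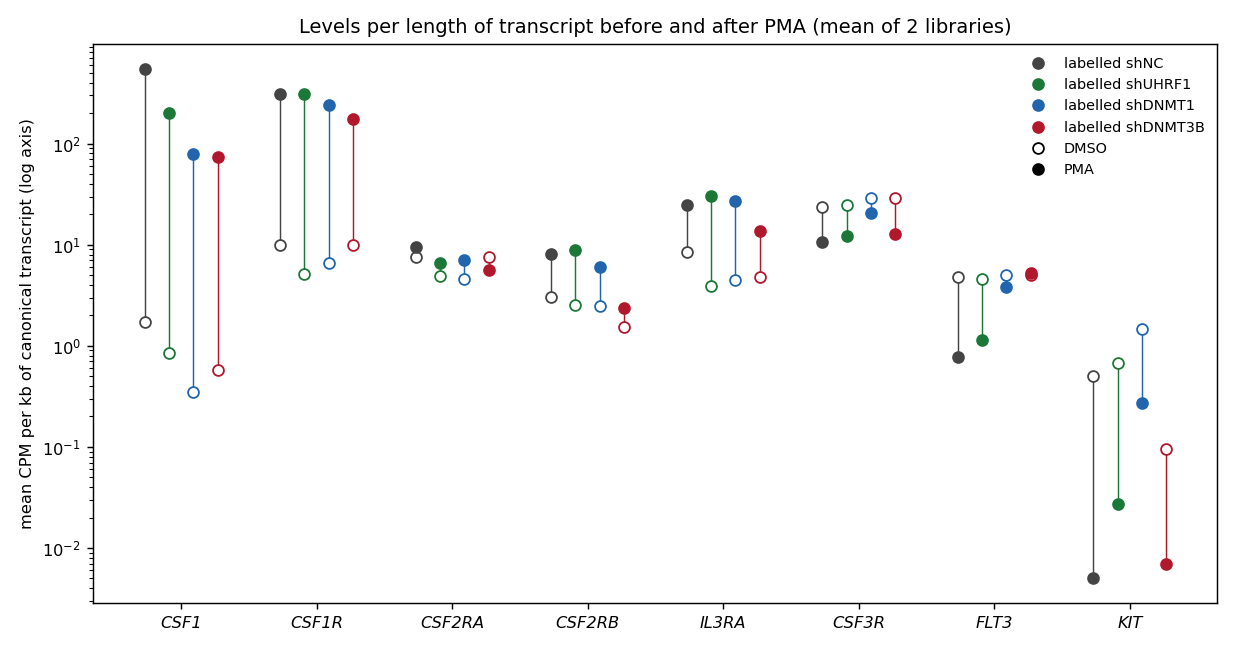
Mean CPM per kilobase of canonical transcript of the 8 genes in each line, on a log axis. Open points are DMSO and filled points PMA. CSF1 moves from 1.72 to 543 in shNC, and KIT is the lowest of the 8 there in both treatments.

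Of the ligands of these receptors, 4 were at or near 0. IL3 had 0 counts over the 16 libraries, IL5 1, IL34 2 and CSF2 9, too few to test. CSF3, the ligand of CSF3R, had 0 counts with DMSO in all 4 lines. With PMA it had 110 counts over both libraries in shNC, 500 in shUHRF1, 28 in shDNMT1 and 121 in shDNMT3B. Against a floor of 3 counts per group in DMSO, and scaled by library size, these pooled counts were at least 42.2-fold, 217-fold, 9.89-fold and 49.2-fold higher. The exact 95% lower limits of the count ratios, which add the counting error of the PMA libraries, were 33.7, 176, 7.52 and 39.4. Against shNC in PMA it was higher in shUHRF1 (log2 2.24, adjusted p = 0.00472 by edgeR) and lower in shDNMT1 (-2.04, 0.00345). KITLG, the ligand of KIT, rose in all 4 lines, from 12.1 to 28.6 CPM in shNC (log2 1.24, adjusted p = 0.011) and by 1.37, 1.82 and 1.38 in the others. FLT3LG, the ligand of FLT3, had log2 differences of 0.02, 0.22, 0.61 and 0.70 that did not pass the test, the last 2 with adjusted p = 0.126 and 0.0879, and 0.0197 and 0.0060 with the block.

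Beyond the 8 genes, 105 genes of the same pathways were listed by role, with earlier results of these data known, and 96 were tested. With PMA 51 rose and 24 fell in shNC, 57 and 19 in shUHRF1, 58 and 16 in shDNMT1, and 55 and 14 in shDNMT3B. Over all genes 54.4%, 54.9%, 52.7% and 44.9% were called in these lines, and 28.4%, 29.4%, 28.6% and 25.2% rose. The median log2 fold change of the 96 genes was 0.65, 0.91, 1.00 and 0.86, beside at most 0.02 for all genes. Among genes of receptor processing and shedding, 7 of 9 rose in every line, beside the 25.2 to 29.4% of all genes that rose. That list includes MMP9, a secreted protease also used above as a marker of the PMA response (log2 10.7 in shNC). It also holds ADAM17, which cuts the outer part of CSF1R from the cell (2.38), ADAM10 (1.00) and CBL, a ubiquitin ligase that marks activated receptors (1.36). Among 11 other receptors 8 rose and 1 fell in shNC, with IFNGR2 going from 59.1 to 510 CPM (log2 3.11) and IL4R from 25.4 to 61.5 (1.28).

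Of 25 genes of proximal signaling, 13 rose and 3 fell with PMA in shNC, where 28.4% of all genes rose and 26.0% fell. The Src family kinase FGR rose from 3.01 to 98.3 CPM (log2 5.02) and its relative LYN from 109 to 321 (1.55). JAK1 rose from 46.8 to 132 (1.5). Of the PI3-kinase subunits listed, PIK3R5 rose from 5.79 to 127 CPM (4.45) and PIK3CD fell from 153 to 29.6 (-2.37). Of 19 inhibitors, 9 rose and 7 fell, with SH2B3 (4.02), CBLB (4.26) and SOCS3 (from 2.30 to 28.6 CPM, 3.63) among those that rose. STAT5 and cytokine targets split evenly, 6 rising and 6 falling of 13, as PIM1 (4.38) and MCL1 (2.34) rose while CISH (-2.91) and BCL2 (-1.91) fell.

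Transcription factors that act on these receptor genes or in the same lineages divided in direction, 7 of 18 rising and 8 falling in shNC. Over all genes 28.4% rose and 26% fell in that line. EGR2, a factor of monocytes and macrophages, rose (log2 10.5), as did JUN, a subunit of AP-1 (4.31). MYB, which maintains progenitors, fell from 301 to 7.55 CPM (-5.33), and GFI1, a transcriptional repressor needed for neutrophil development, fell from 142 to 13.9 (-3.35). With PMA, MYB was 55.5 CPM in shDNMT1 and 30.2 in shDNMT3B, higher than in shNC by 2.89 and 2.01 on the log2 scale, and GFI1 was 51.5 and 35.1, higher by 1.89 and 1.34. GATA2 was 56.7 and 30.9 against 18.9 in shNC, higher by 1.58 and 0.70. All 6 of these differences were called by edgeR's quasi-likelihood test. Of the 18 factors, 5 were called higher and 3 lower in shDNMT1 with PMA and 5 higher and 1 lower in shDNMT3B, beside 14.8% and 20.3% of all genes called.

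Over all genes 1.31%, 3.96% and 4.51% were called against shNC in DMSO for shUHRF1, shDNMT1 and shDNMT3B. Most of those calls were lower, 189 of 217, 559 of 653 and 477 of 744. Against shNC, the 96 pathway genes held 3, 12 and 11 calls in DMSO, also mostly lower (3, 9 and 10). With 1 library left out these counts were 1 to 4, 5 to 9 and 3 to 7. In PMA there were 8, 33 and 27 calls, beside 3.69%, 14.8% and 20.3% of all genes, and with 1 library left out 1 to 2, 18 to 25 and 11 to 14. SOCS3, a feedback inhibitor of JAK signaling, was lower there in shDNMT1 (log2 -2.39) and shDNMT3B (-2.31). The PMA responses differed from that of shNC in 4, 22 and 12 of the 96 genes, beside 0.848%, 6.71% and 6.77% of all genes, and in 0 to 3, 10 to 16 and 7 to 10 with 1 library left out. With 1 library left out a group holds 1 library, and calls over all genes fell as well in nearly all of these fits. The lower counts are therefore not particular to the pathway genes.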

How the data were processed

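RNA-seq of THP-1 hairpin lines was deposited as 1 table of raw counts per gene, made by the authors from stranded mRNA libraries (paired-end reads). The submitters' processing notes name hg38, STAR 2.4.0b, Cufflinks 2.1.1, HTSeq 0.6.1p1 and edgeR. The title and the description of a record disagree on the condition in 12 of 16 cases. Each column was read by the condition in its own name, which is the form the description takes. No column name states DMSO, and columns without PMA in the name were taken as DMSO, the solvent control of the study. Genes were named by identifier from GENCODE release 44, which named 60357 of 60676, and no exon of another gene overlapped those of the 8 genes. Their counts can still include reads shared with similar sequence, as the counting of such reads is not given in the sources used here.

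Genes with too few counts were removed by edgeR's filterByExpr (count 10, total 15), leaving 16503, all 8 among them. Libraries were scaled by TMM and fitted together by group with edgeR 4.0.16 (quasi-likelihood, R 4.3.3), and 13 comparisons were tested with Benjamini-Hochberg adjustment over all tested genes (threshold 0.05, no fold limit). The common dispersion was 0.0439 with 8 residual degrees of freedom. CPM in the text is per library after TMM. Same-numbered replicates deviated together in 28 of 28 pairs of groups (correlation 0.22 to 0.508, each over 0.1), so a fit with the replicate number as a block was run beside the first. The numbers come from the column names, and no label says what they share. The block lowered the dispersion to 0.0115. Alternatives were DESeq2 1.42.0, upper-quartile scaling, no filter, only the groups compared, no mitochondrially encoded genes, a fold limit (1 for PMA, 0.585 between lines on the log2 scale), the exact test after 3 rounds of DEGES normalization, and each library left out. The fit was tested on simulated data. Tables were made with pandas 2.3.3 and SciPy 1.17.1 under Python 3.11.15.

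The 8 genes, the pathway lists and the markers were chosen with earlier results of these data known. Named pathway genes are the measured ligands, and per list up to 5 with the smallest adjusted p in the shNC response and up to 3 with the smallest between lines. Library totals of 13883556 to 23151864 put the floor of 3 counts over a group at 0.072 to 0.0949 CPM. Intervals of counts are at 95% and cover counting error only. Some genes that this rule and the search for like patterns named are not reported here.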

Additional observations from a re-analysis of the deposited data

Results flagged for a closer look

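Between lines, 3 differences in the size of the PMA response passed a test of the difference itself, an interaction term in edgeR's quasi-likelihood fit. The IL3RA response was larger in the libraries labelled shUHRF1 than in shNC by 1.42 on the log2 scale (adjusted p = 0.048): IL3RA rose in both lines, was lower in shUHRF1 with DMSO and overlapped with PMA. The FLT3 response was less negative than in shNC by 2.21 in shDNMT1 (adjusted p = 0.000698) and by 2.70 in shDNMT3B (adjusted p = 0.000168). FLT3 fell in shNC and was not called in shDNMT3B. In shDNMT1 its response was -0.42 (adjusted p = 0.0951, with the replicate block 0.0285), and -0.69 under upper-quartile scaling (0.0105 by edgeR). Both FLT3 differences were read against the same shNC libraries, so they are not independent of each other. The IL3RA difference was lost without any one of its 8 libraries (adjusted p = 0.0821 to 0.24 by edgeR), under upper-quartile scaling (0.0597) and with only the groups compared (0.162), whereas both FLT3 differences were kept without each library in turn. Depth differed with the replicate number, and the mitochondrial share with the replicate number, the treatment and the line. With mitochondrially encoded genes left out all 3 differences were still called.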

How the results depend on the processing

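Of 701 values of the 8 genes under the other settings, 630 kept their direction and their side of the threshold, 44 gained a call, 21 lost one and 6 changed sign. Of 512 with 1 library left out, these numbers were 423, 3, 49 and 37. The planned sum of X and Y copies of CSF2RA and IL3RA was not run, since the table holds the X entries alone. The number of genes tested or libraries fitted differs by construction without the filter, with only the groups compared and with a library left out, and otherwise the cause was not tested. With a library left out, its partner is assumed to vary like the other groups.

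Signs changed for values near 0 that were not called: FLT3 in the shDNMT3B response (-0.17) and the shDNMT3B response differences of CSF3R (0.030) and IL3RA (0.022) with upper-quartile scaling, CSF2RA in shDNMT3B with DMSO without the filter (-0.011), and CSF1R in shUHRF1 with PMA in the fit of only the groups compared (-0.0059) and by DESeq2 (-0.0015).

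With the replicate number as a block, the 8 genes gave 4 calls in place of 2 in shUHRF1 and 5 in place of 3 in shDNMT1 with DMSO, 2 in place of 1 in shUHRF1 and 7 in place of 4 in shDNMT1 with PMA, and 2, 4 and 5 in place of 1 response difference in shUHRF1, shDNMT1 and shDNMT3B. The block ended no call. The pathway genes with the block gave 14 calls in place of 3, 28 in place of 12 and 30 in place of 11 with DMSO in the same order of lines, 28 in place of 8, 52 in place of 33 and 47 in place of 27 with PMA, and 19 in place of 4, 46 in place of 22 and 34 in place of 12 response differences. With only the groups compared, the 8 genes gave 0 calls in each line with DMSO by edgeR, with 3, 5 and 4 at an unadjusted p under 0.05, and 0 and 2 response differences in shUHRF1 and shDNMT1, with 2 at an unadjusted p under 0.05 in shUHRF1. The pathway genes gave 0, 1 and 1 calls with DMSO (6 at an unadjusted p under 0.05 in shUHRF1), 2 in shUHRF1 with PMA, and 0 and 11 response differences in shUHRF1 and shDNMT1, with 19 at an unadjusted p under 0.05 in shUHRF1. DESeq2 called 5 of the 8 genes in shDNMT1 with DMSO and 2, 3 and 3 response differences, and of the pathway genes 5 in shUHRF1 with DMSO, 15 in shUHRF1 with PMA and 11 response differences in shUHRF1. Without the filter there were 3 and 2 response differences of the 8 genes in shDNMT1 and shDNMT3B, and 5 pathway calls in shUHRF1 with DMSO. Upper-quartile scaling gave 0 response differences in shUHRF1, where IL3RA had an adjusted p of 0.0597 and 2 genes an unadjusted p under 0.05, and leaving out mitochondrially encoded genes gave 2 in shDNMT3B. The exact test after DEGES gave 1 pathway call in shUHRF1 and 6 in shDNMT3B with DMSO.

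With 1 library left out, the 8 genes gave 0 to 1, 1 and 0 to 1 calls with DMSO in shUHRF1, shDNMT1 and shDNMT3B, 0 in shUHRF1 and 3 to 6 in shDNMT3B with PMA, and 0, 1 to 2 and 1 to 2 response differences. Where edgeR called 0 of the 8, 2 to 5 had an unadjusted p under 0.05, and where it called 0 pathway response differences, 18 to 19 did. The pathway genes gave 1 to 4, 5 to 9 and 3 to 7 calls with DMSO, 1 to 2, 18 to 25 and 11 to 14 with PMA, and 0 to 3, 10 to 16 and 7 to 10 response differences. Signs changed with a library left out for FLT3 in the shDNMT3B response (-0.031 to 0.15). With DMSO they changed for CSF2RB (-0.80 to 0.11), CSF3R (-0.10 to 0.22) and FLT3 (-0.27 to 0.12) in shUHRF1, FLT3 in shDNMT1 (-0.015 to 0.18), and CSF1R (-0.012 to 0.052), CSF2RA (-0.15 to 0.18) and FLT3 (-0.030 to 0.16) in shDNMT3B. With PMA they changed for CSF1R (-0.080 to 0.10), CSF2RB (-0.0062 to 0.29) and KIT (-2.44 to 4.26) in shUHRF1, IL3RA in shDNMT1 (-0.14 to 0.38) and KIT in shDNMT3B (-2.44 to 2.48). Among response differences they changed for CSF2RA (-0.089 to 0.24), CSF3R (-0.020 to 0.30) and KIT (-2.87 to 3.83) in shUHRF1, CSF1 (-0.93 to 0.092) and CSF2RB (-0.28 to 0.058) in shDNMT1, and CSF3R (-0.18 to 0.15), IL3RA (-0.15 to 0.15) and KIT (-0.067 to 4.85) in shDNMT3B.

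Over all genes, calls in shUHRF1 with DMSO went from 217 to 545 without the filter, 1891 with the block, 15 with only the groups compared and 574 by DESeq2. In shDNMT1 they went from 653 to 1065, 2240 and 122 under the first 3 of these settings, and in shDNMT3B from 744 to 1206, 3083, 102 and, by DESeq2, 1148. With PMA the block gave 2514 in place of 609, 5176 in place of 2450 and 6589 in place of 3357, and for shUHRF1 only the groups compared gave 184 and DESeq2 1052. Response differences went from 140 to 321, 1400, 1 and 415 in shUHRF1 under the 4 settings in that order, and with the block from 1107 to 3074 in shDNMT1 and from 1118 to 3224 in shDNMT3B. The depth of the libraries limits KIT with PMA, where 3 of the 4 lines held 1 to 4 counts over both libraries, so its fitted fold changes are no bound. The shNC response of KIT was -8.53 without shNC PMA replicate 1 and -5.43 without shNC PMA replicate 2, and the shUHRF1 response was -8.99 without shUHRF1 PMA replicate 2 and -3.61 without replicate 1. In shDNMT3B it was -6.18 without PMA replicate 2.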

Other observations

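For each of the 8 genes, the genes whose mean log2 CPM over the 8 groups was most like its own were listed by Pearson's r, among 10583 genes. These are descriptions over 8 group means that share libraries and a large PMA effect, and say nothing of shared control. The pattern of FLT3, high with DMSO and in PMA graded from shNC to shDNMT3B, was most like those of ACOT13 (r = 0.985), HTRA3 (0.979) and DENND3 (0.974). DENND3, which acts on Rab proteins of membrane traffic, was 82.9 CPM in shNC with DMSO, and with PMA 24.1 in shNC, 38.6 in shUHRF1, 63.9 in shDNMT1 and 84.8 in shDNMT3B. CSF1R went with C3AR1 (0.999), the receptor for complement fragment C3a, MGLL (0.998), a lipase, and DCSTAMP (0.998), a protein of cell fusion in osteoclasts. CSF1 went with NCS1 (0.998) and GNA12 (0.997), and KIT with SIMC1 (0.987), SOGA1 (0.976) and ARHGEF18 (0.974). IL3RA went with GTF2F1 (0.998), BLZF1 (0.996) and ACTR3 (0.996), and CSF2RB with EID1 (0.989), LARP4 (0.988) and RAP2C (0.988). CSF3R went with ZFAND2A-DT (0.983), HEMK1 (0.981) and CRYZL2P (0.978). CSF2RA had the loosest match, GCLM (0.937), ZNF268 (0.936) and TNFRSF10A-DT (0.927).

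For some pathway genes the fitted PMA response had opposite signs in different lines. OSM, a cytokine of the IL-6 family, rose with PMA in shNC (log2 2.30) and had a response of -0.88 in the libraries labelled shDNMT1 (adjusted p = 0.0654), where its PMA level was lower than in shNC (log2 -2.99, adjusted p = 0.000133). INPP5D, which encodes the lipid phosphatase SHIP1, fell with PMA in shNC (-0.45, adjusted p = 0.0187) and rose in shUHRF1 (0.48) and shDNMT1 (0.86), all by edgeR's quasi-likelihood test. The differences between these responses are not given here. Markers of other cell types were near 0 for T cells (CD3D 0, CD3E 2 and CD3G 1 counts in all) and for platelets by PF4 (2 counts), while PPBP reached 10.5 CPM and COL1A1 10.8 CPM with PMA, and PAX5, a B cell factor, reached 31.0 CPM beside 4 counts of MS4A1.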
